A study of Rattus norvegicus with 66 samples.

Results

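The 8 choroid plexus genes Ttr, Folr1, Kl, Clic6, Otx2, Aqp1, Slc4a5 and Prlr, were followed in the dorsal hippocampus of single rat pups on postnatal day (PND) 6. They were chosen by name from the 37777 gene entries of the count files, and each symbol was read from the gene map that accompanies the counts. The data are 66 RNA-seq libraries of 64 Long Evans pups (41 males and 23 females) from 44 litters. Dams were treated, and pups were exposed through them. The hippocampus was cut from a frontal brain slice together with adjoining lateral cortex. The description of that dissection does not mention the choroid plexus.

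Controls were pups of dams on the soy-free chow alone (CONF, 4 males and 5 females) and of dams injected subcutaneously with vehicle (CONSC, 5 males and 5 females), which the labels call saline and the study's methods DMSO. Aroclor 1254, a technical mixture of polychlorinated biphenyls, and bisphenol A, an estrogenic compound, were given in the same chow from before mating until collection. Chlorpyrifos, an organophosphate insecticide, was injected subcutaneously during gestation and again after birth. Low-dose groups held males only: Aro0.5 (0.5 mg/kg/day, 4 males), BPA0.5 (0.5 mg/kg/day, 4 males) and CPF1 (1 mg/kg/day, 4 males). High-dose groups were Aro5 (5 mg/kg/day, 6 males and 5 females), BPA5 (5 mg/kg/day, 7 males and 4 females) and CPF3 (3 mg/kg/day, 7 males and 4 females).

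Library totals ranged from 10644138 to 86206550 counts with a median of 20740650.5, and the second highest was 36676752. Library titles are written in 2 forms. All 20 libraries of high-dose males have the second form and 9 of 10 libraries of control males have the first, so that title form and high-dose treatment cannot be told apart in males. What the forms stand for is not stated. All 12 libraries of low-dose males have the first form, control females have both (5 and 6), and the form of the 13 treated females could not be read. In 2 control pups, N2-2y and N4-3x, 2 libraries each were summed.

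The choroid plexus is a folded sheet of epithelium in the brain ventricles that secretes cerebrospinal fluid and separates it from blood. In the lateral ventricle it lies along the fimbria of the hippocampus. Ttr encodes transthyretin, a carrier of thyroxine and of retinol-binding protein, and the choroid plexus is the main site of its synthesis in the brain. Folr1 encodes the folate receptor that moves folate into the fluid, and Kl encodes Klotho, a co-receptor for a fibroblast growth factor that also exists in shed form. Aqp1 is a water channel, Slc4a5 a sodium bicarbonate cotransporter and Clic6 a chloride intracellular channel protein. Prlr is the prolactin receptor, and Otx2 is a homeodomain transcription factor needed for development of the plexus.

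Reference promoters of members, the bases before the transcription start in RefSeq's rat assembly GRCr8, were read because the members' levels moved together. 5 of the 8 members had an entry (Ttr, Kl, Aqp1, Slc4a5 and Prlr, the last with 2 starts), whereas Folr1, Clic6 and Otx2 had none. The 250 bases before the start are shown for Ttr (chr18:12218508-12218757, plus strand), Kl (chr12:5325753-5326002, plus strand) and Aqp1 (chr4:85812534-85812783, plus strand), the 3 in which a searched word occurred. Capitals mark TAATC, the first letters of the Otx-type homeodomain word TAATCC, or TATAAA, the TATA box word, on either strand.
Ttr: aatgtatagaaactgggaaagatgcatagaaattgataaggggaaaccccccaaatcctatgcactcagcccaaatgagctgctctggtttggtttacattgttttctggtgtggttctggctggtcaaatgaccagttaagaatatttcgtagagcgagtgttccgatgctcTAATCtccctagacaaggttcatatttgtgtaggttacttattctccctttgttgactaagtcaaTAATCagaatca
Kl: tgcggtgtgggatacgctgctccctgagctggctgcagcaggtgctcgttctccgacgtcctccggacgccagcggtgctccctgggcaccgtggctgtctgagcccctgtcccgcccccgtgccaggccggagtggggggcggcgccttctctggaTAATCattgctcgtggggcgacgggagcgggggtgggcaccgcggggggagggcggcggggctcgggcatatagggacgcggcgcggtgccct
Aqp1: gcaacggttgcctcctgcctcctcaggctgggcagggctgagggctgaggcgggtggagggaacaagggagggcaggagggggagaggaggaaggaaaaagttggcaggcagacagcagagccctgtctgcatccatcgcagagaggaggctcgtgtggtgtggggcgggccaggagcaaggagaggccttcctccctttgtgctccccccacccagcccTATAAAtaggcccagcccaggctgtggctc
The complete word TAATCC and the forkhead word TGTTTAC, which were searched on both strands, occurred in none of the 6 member promoters, and in 6.3% and 3.2% of all 33469 reference promoters. TAATC, chosen after those counts were seen, was present in Ttr, 77 and 12 bases before the start, and in Kl, 93 bases before it, and in 20.5% of all promoters. TATAAA, chosen in the same way, was present in Aqp1 and in 12.9% of all promoters. These matches are a description of letters.

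Ttr was abundant in every pup and varied widely. Levels are given in CPM, the counts of a gene divided by all counts of the pup and scaled to 1000000, with no correction for gene length, so that they compare pups for 1 gene and not genes with each other. Ttr (entry gene32679) ranged from 722 to 4369 CPM over the 64 pups with a median of 2281 CPM, a 6.05-fold range. The lowest pup was a BPA5 female and the highest a CONSC female.

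In control males, Ttr was 2503, 2172, 3498 and 2100 CPM in CONF and between 1220 and 3775 CPM in CONSC (median 3050, n = 5). In control females it was between 2068 and 2924 CPM in CONF (median 2423, n = 5) and between 1518 and 4369 CPM in CONSC (median 2303, n = 5). Ranges of all 4 control groups thus overlapped, and those of CONSC were the wider ones.

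Group means of Ttr lay between 1476 ± 652 CPM (SD, n = 4) in BPA5 females and 2764 ± 990 CPM (SD, n = 5) in CONSC males. In ascending order the groups between them were Aro5 females, Aro0.5 males, CPF3 males, Aro5 males, BPA5 males, BPA0.5 males, CONF females, CPF3 females, CONF males, CONSC females and CPF1 males. None of the 12 steps between neighbours in this order exceeded the smaller of both SDs. Steps between sorted means are small by construction, and the tests between groups are given further on.

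**Figure D1:**
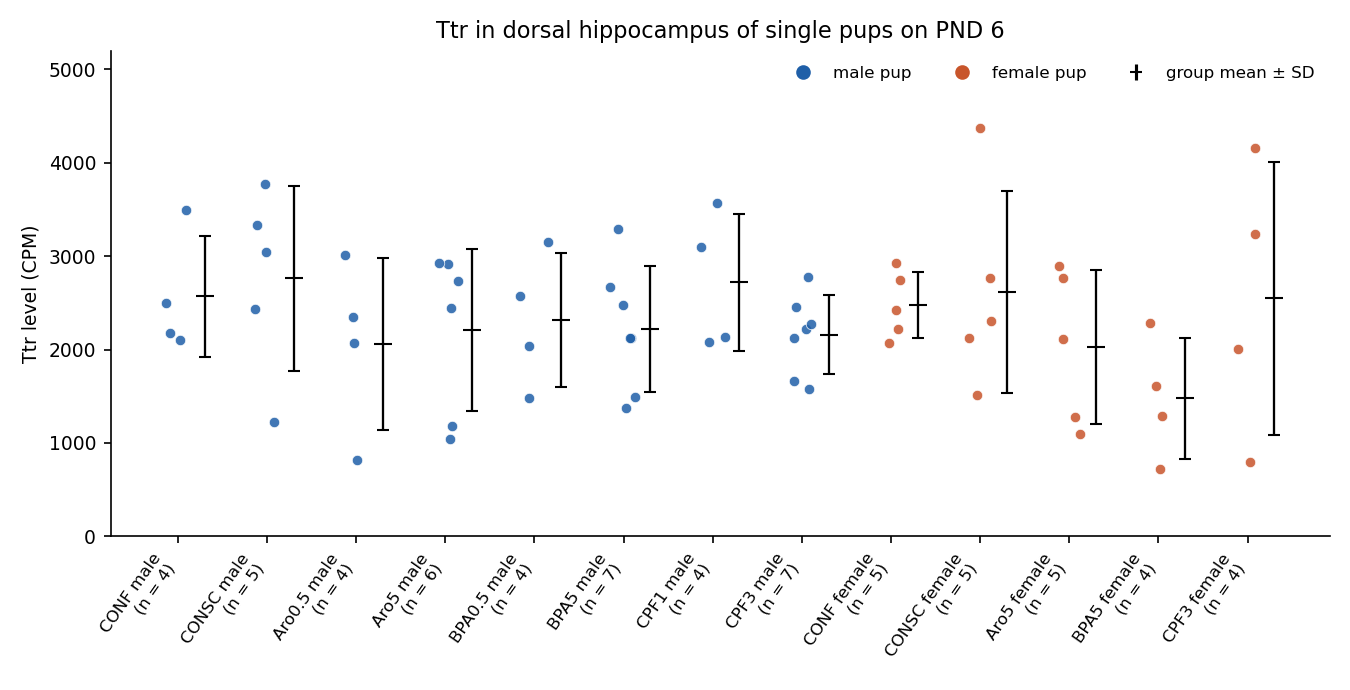
Ttr level in CPM (vertical axis) for every pup of the 13 groups, males and females in separate colours, with group mean and SD. All groups overlap, and the pups at 722 CPM (BPA5 female), 800 CPM (CPF3 female) and 815 CPM (Aro0.5 male) are the lowest of all.

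Folr1 (gene2603) ranged from 9.35 to 46.7 CPM over all pups with a median of 25.4 CPM. Its group means ran from 17.5 CPM in BPA5 females to 31.3 CPM in CONF males. Like Ttr, this folate receptor was lowest in the BPA5 female with 722 CPM of Ttr.

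Kl (gene25534) ranged from 3.81 to 37.3 CPM with a median of 14.7 CPM, the widest range of the abundant members at 9.79-fold. Clic6 (gene24694) ranged from 4.70 to 42.8 CPM with a median of 20.7 CPM. The means of both were lowest in Aro0.5 males, at 9.24 CPM for Kl and 12.3 CPM for Clic6, and highest in CONF females, at 19.8 CPM for Kl and 27.3 CPM for Clic6. The lowest single pup for both was the same Aro0.5 male, 94-3y, and the highest for both was a CPF3 female.

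Aqp1 (gene11085) ranged from 14.2 to 82.8 CPM with a median of 45.8 CPM, and its group means from 31.6 CPM in BPA5 females to 53.3 CPM in CONF males. Slc4a5 (gene11390) ranged from 3.28 to 23.8 CPM with a median of 12.4 CPM, and its group means from 8.49 CPM in Aro0.5 males to 16.1 CPM in CPF3 females. For Folr1, Kl, Clic6 and Aqp1 every step between neighbouring group means was below the smaller SD, and for Slc4a5 this held for 11 of 12 steps. As for Ttr, such steps are small by construction and do not compare the groups.

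The remaining members were close to the limit of detection. Prlr (gene5303) was read with 1 to 41 counts per pup, between 0.091 and 1.03 CPM. Otx2 (gene29162) had 0 counts in 56 of 64 pups and 11 counts in all, with at most 3 in 1 pup. In the pups at 0, levels of up to 0.0348 to 0.282 CPM, depending on depth, could not have been seen if 3 counts are taken as the floor, and these limits cover counting error only. The gene map links this Otx2 entry to a non-coding RefSeq record only, and where reads of the coding transcript were counted was not tested. Otx2 was thus of no use as a marker here.

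The abundant members varied more between pups than most genes. SDs of log2(CPM + 0.5) over 64 pups were 0.57 for Ttr, 0.50 for Folr1, 0.56 for Kl, 0.57 for Clic6, 0.55 for Aqp1 and 0.48 for Slc4a5, against a median of 0.227 over 14702 genes. Within groups the SD of Ttr was 0.58, which placed it above 98.7% of those genes. Differences between the 13 groups took up between 15.9% (Aqp1) and 25.0% (Clic6) of the variation of these members, while the groups hold 12 of 63 degrees of freedom (19.0%).

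Repeat libraries of 1 pup show how far values can differ without a difference between pups. The libraries of the CONF female N4-3x are labelled with collection times of 12.09 and 11.55, and whether both came from 1 tissue sample was not tested. In this pup, Ttr was 2123 CPM in one library and 1973 CPM in the other, and the remaining members differed by -0.02 to 0.16 on the log2 scale. In the CONF male N2-2y, Ttr was 2009 CPM in the library of the first form and 2961 CPM in that of the second. This log2 difference of 0.56 is close to the SD between pups, while the other members of this pup differed by between -0.17 (Kl) and 0.42 (Folr1).

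Apart from Otx2, the members varied together from pup to pup. Of the 28 pairs of members, 21 were positively correlated with a permutation p below 0.05, also after Benjamini-Hochberg adjustment over the 28 pairs, and each of the other 7 pairs included Otx2 (r between -0.095 and 0.019). The 15 pairs among Ttr, Folr1, Kl, Clic6, Aqp1 and Slc4a5 had r between 0.769 and 0.967 with a median of 0.844. Pairs with Prlr were weaker, between 0.381 and 0.562, at 1 to 41 counts per pup.

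Ttr and Folr1 were the closest pair, with Pearson's r of 0.967 and Spearman's rho of 0.945 over 64 pups (permutation p = 1e-05 for both, the smallest that 100000 resamples can give, and adjusted p = 1.75e-05 for r). Without the 2 pups farthest from the median of Ttr, r was 0.959. The water channel Aqp1 followed Ttr with r = 0.933 (rho = 0.897), and Clic6 with r = 0.857 (rho = 0.798). Slc4a5 and Kl followed Ttr less closely, at r = 0.790 (rho = 0.692) and r = 0.774 (rho = 0.717), each with a permutation p of 1e-05. Prlr reached r = 0.420 with Ttr (rho = 0.418, permutation p = 0.00053).

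Slc4a5 and Kl were each closer to Clic6 than to Ttr. Clic6 had r = 0.919 with Slc4a5 and r = 0.882 with Kl, compared with r = 0.790 and r = 0.774 between these genes and Ttr. Aqp1 had r = 0.911 with Folr1 and r = 0.90 with Clic6, both below its r with Ttr. Over all pups, Folr1 was at 1.15 ± 0.121% of the CPM of Ttr (SD, n = 64 pups).

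The pattern was also present within groups and within each title form. With values taken as deviations from the group means, the 15 pairs had a median r of 0.889. The median was 0.887 in the 24 pups with libraries of the first title form, 0.825 in the 25 pups with the second form and 0.953 in the 13 high-dose females, the last added after the data had been seen. With 1 pup per litter (44 pups) it was 0.850.

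**Figure D2:**
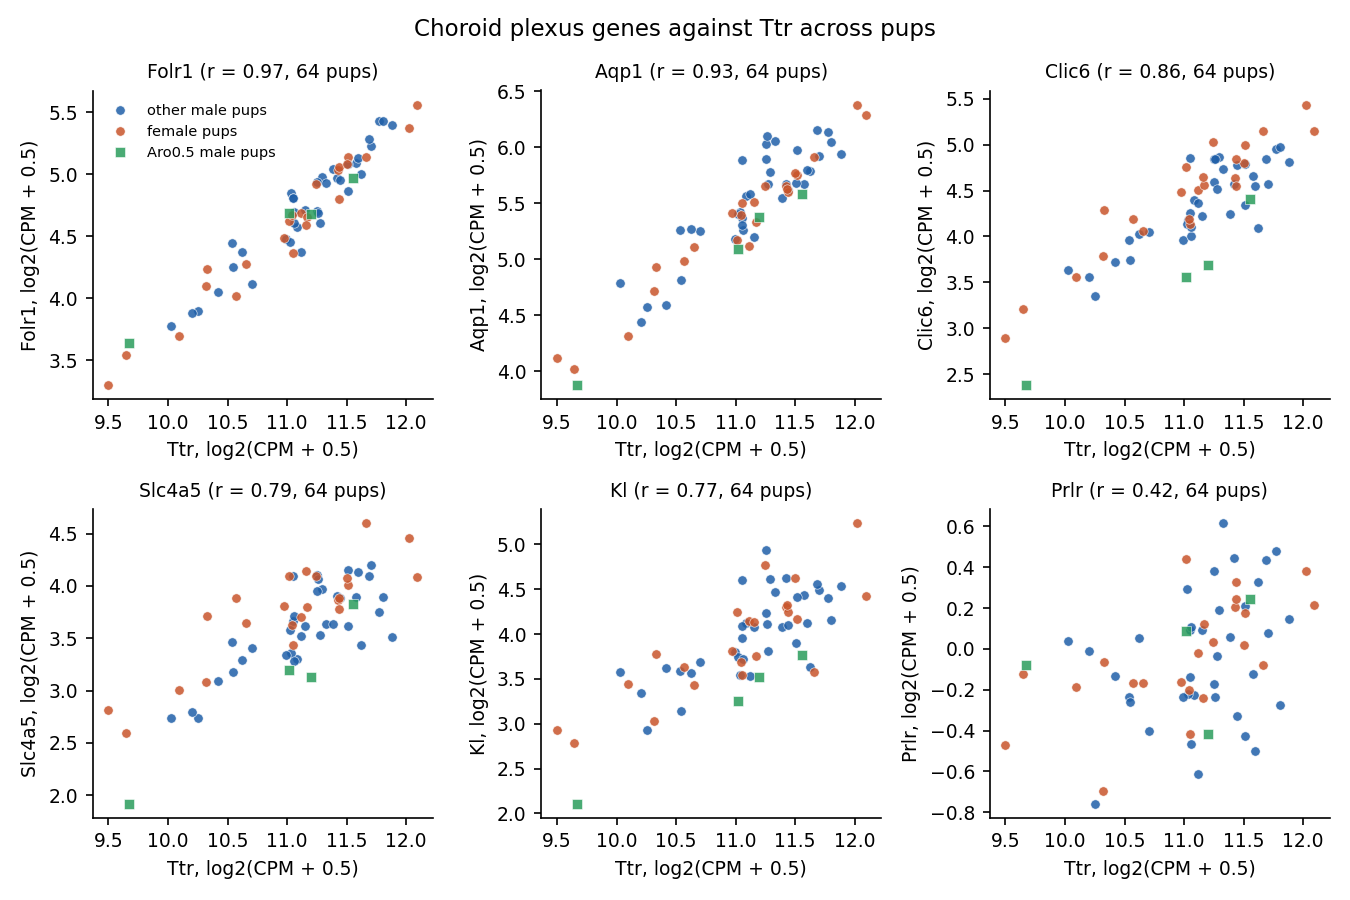
Each member against Ttr, both as log2(CPM + 0.5), with 1 point per pup (64 pups), coloured by group of samples, and Pearson's r above each panel. Folr1 and Aqp1 lie along a narrow line with Ttr (r = 0.97 and 0.93), and Kl is low for the level of Ttr in the 4 Aro0.5 males.

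Set against all genes, the 5 other members with a mean of at least 1 CPM stood among those most like Ttr. Prlr and Otx2 were below this limit and were not ranked. Over 14696 genes with a mean of at least 1 CPM, r with Ttr had a median of 0.0648 and was above 0.5 for 5.03% and above 0.7 for 0.953% of genes. Among 14701 genes ranked by r, Folr1 was 1st, Aqp1 4th, Clic6 21st, Slc4a5 50th and Kl 65th. These and the following correlations across genes are descriptions, since all share the same pups and libraries.

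The 10 genes outside the members with the highest r were Col8a2 (0.942), Mfrp (0.939), Sostdc1 (0.926), Klk4 (0.923), Pla2g5 (0.918), Clu (0.917), Kcne2 (0.912), Cdh3 (0.907), Cldn19 (0.893) and Clec18a (0.891). Kcne2 is a potassium channel subunit, Cldn19 a tight junction protein, Sostdc1 a secreted antagonist of BMP and Wnt signalling, and Clu encodes clusterin, a secreted chaperone. Clu ranged from 282 to 520 CPM, a narrower range than that of Ttr. The 3 lowest were Kcnj6 (-0.773) and Rims1 (-0.722), a neuronal potassium channel and a presynaptic protein, and Tub (-0.745).

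Other genes of the plexus epithelium moved in the same way. Of a list of 34 such genes, 33 had a mean of at least 1 CPM, and their median r with Ttr was 0.786, with 25 above 0.5 and 19 above 0.7, compared with 5.03% and 0.953% of all genes. The lowest of the list was Slc29a4, a monoamine transporter (r = -0.050). All 12 usable genes of motile cilia, which plexus cells share with the ependyma, had r between 0.560 (Foxj1) and 0.685 (Rsph1). Fibroblast genes (11 genes, median r = -0.065), endothelial genes (12 genes, median r = -0.041) and erythroid genes (4 genes, median r = 0.161) had medians near that of all genes. Within the fibroblast list Igf2 stood apart at r = 0.679, and Igf2 is also made by the choroid plexus.

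Among genes of neighbouring brain regions, those of the thalamus and habenula mostly had negative r with Ttr. The 12 thalamic and habenular genes had a median r of -0.416, 11 of them below 0, with Gpr151, a habenular receptor, the lowest at -0.577 and Tac1 the one above 0 (r = 0.552). Hippocampal field genes (9 genes) had a median of -0.185 and neocortical genes (8 genes) a median of -0.105. Both medians lay inside the 5th to 95th percentile of all genes (-0.36 to 0.501), but single genes lay outside it. These were Lef1 (-0.574) and Dsp (0.541) of the hippocampal list, and Bcl11b (0.633) and Lamp5 (0.579) of the neocortical list. A list of 10 striatal genes, added after the values of Bcl11b, Tac1 and Rxrg had been seen, had r between 0.535 and 0.692 with a median of 0.594, led by Ppp1r1b (0.692), Adora2a (0.687) and Rarb (0.673).

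In the 4 pups with the lowest Ttr (722, 800, 815 and 1043 CPM), the summed striatal genes were at 136, 141, 202 and 138 CPM and the summed thalamic and habenular genes at 1685, 1299, 1713 and 1486 CPM. In the 4 pups with the highest Ttr (3570, 3775, 4161 and 4369 CPM), they were at 458, 832, 1010 and 1652 CPM for the striatal genes and at 1154, 783, 344 and 805 CPM for the thalamic and habenular genes. Each of the 4 highest pups was above all 4 lowest pups in striatal genes and below them in thalamic and habenular genes, although 1 of them, at 1154 CPM, was above the median of all pups for the latter (1041 CPM). Whether the position of the cut moved the members was not tested. In whole tissue, fewer plexus cells and less RNA per plexus cell cannot be told apart.

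**Figure D3:**
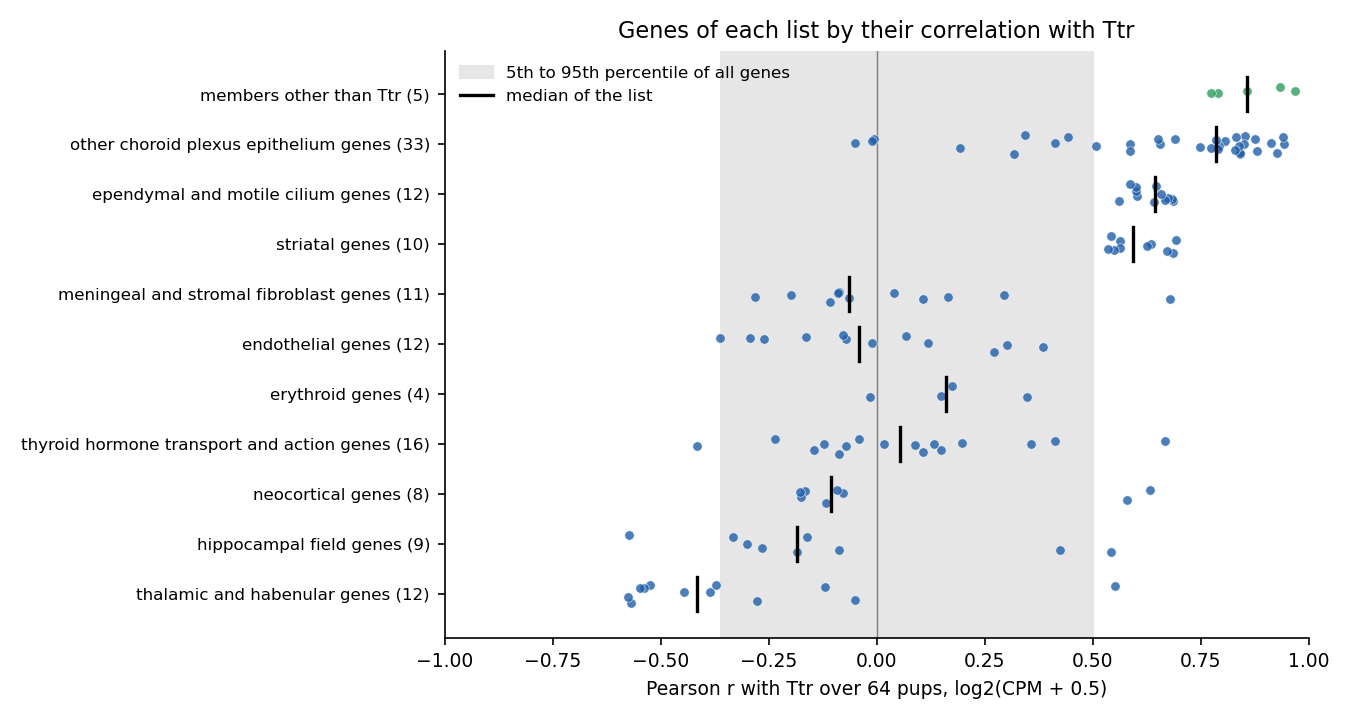
Pearson's r with Ttr over 64 pups (horizontal axis) for each gene of the lists (rows, number of genes in parentheses), with the median of each list as a line and the 5th to 95th percentile of all genes (-0.36 to 0.501) shaded. Plexus, cilium and striatal genes lie mostly to the right of the shaded range, and thalamic and habenular genes mostly left of 0.

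Because Ttr binds thyroxine, genes of thyroid hormone transport and action were compared with it. The 16 usable genes had a median r of 0.053, close to that of all genes. Rxrg, a retinoid X receptor, had the highest r (0.668), followed by the amino acid and thyroid hormone transporter Slc7a8 (0.413). The r of Rxrg lay within the range of the striatal genes (0.535 to 0.692), and the part of striatal tissue in it was not tested. Crym, which encodes a cytosolic thyroid hormone binding protein, had the lowest (-0.417). In the 9 comparisons of a treated group with controls given next, 0 of 17 tested genes of this list were called in each, and between the sexes 1 was called higher and 5 lower in males, compared with 51.3% of all genes.

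No member passed the test in any comparison of groups. Over 15 comparisons, 104 tests of members were made with edgeR's quasi-likelihood F test, 0 had an adjusted p below 0.05 over all genes tested, 5 had an unadjusted p below 0.05 and the smallest adjusted p was 0.130. A further 16 were not made because of low counts, all 15 for Otx2 and 1 for Prlr. Of the 63 tests of a treated group against controls of the same sex, 51 had a log2 fold change below 0 and 12 above. These counts are not independent, because groups of 1 sex and dose level share their controls and the members move together.

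**Figure D4:**
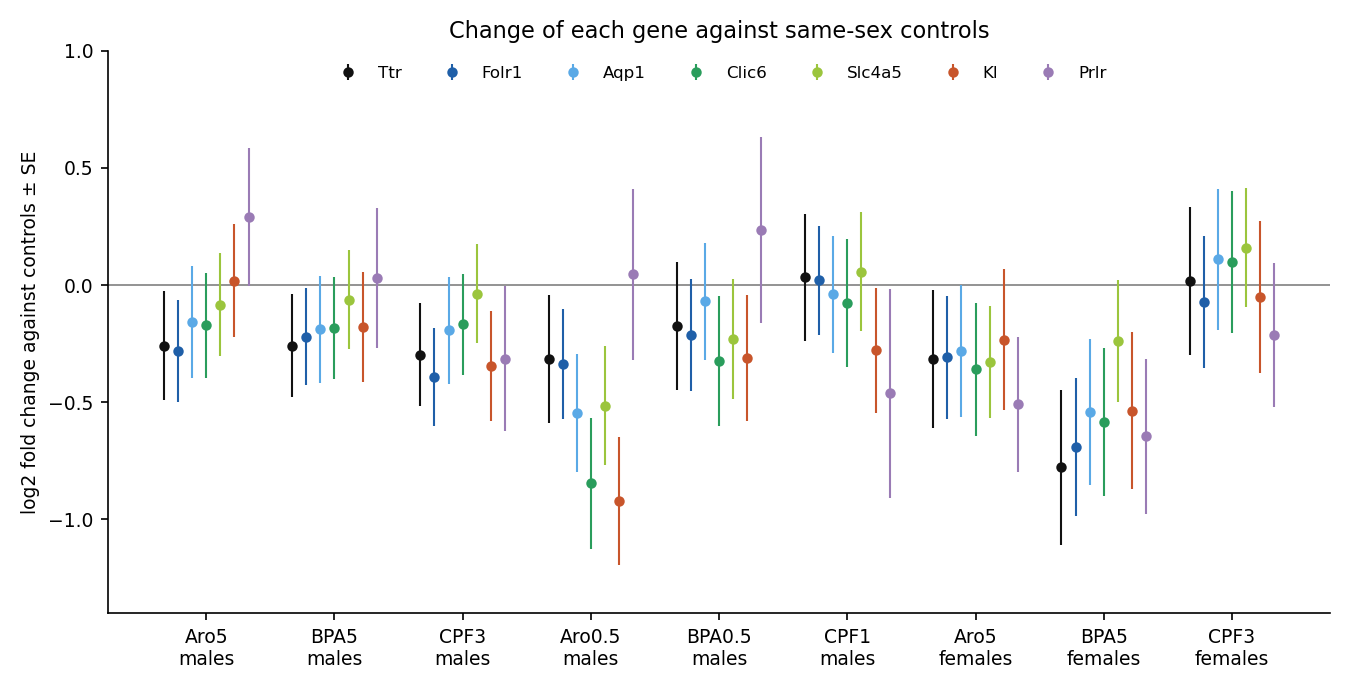
Log2 fold change against controls of the same sex with its SE (vertical axis) for 7 members in 9 treated groups. Values of Aro0.5 males reach -0.92 (Kl) and those of BPA5 females -0.78 (Ttr), and no value passed the test.

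In high-dose males, the shares of all genes called were 0.195% for Aro5, 0.189% for BPA5 and 0.159% for CPF3, and 0 of 7 tested members were called in each. Ttr was at 1043 to 2922 CPM in Aro5 males (median 2591, n = 6), 1369 to 3294 CPM in BPA5 males (median 2122, n = 7) and 1579 to 2782 CPM in CPF3 males (median 2224, n = 7), against 1220 to 3775 CPM in the 9 control males (median 2503). All 3 ranges lay largely within that of controls. The log2 fold changes of Ttr were -0.26 (SE 0.23), -0.26 (SE 0.22) and -0.30 (SE 0.22), with adjusted p of 0.713, 0.710 and 0.577. In CPF3 males all 10 striatal genes were also below 0 (median -0.835, 0 called), and their part was not tested. The smallest adjusted p of these groups was that of Folr1 in CPF3 males (log2 fold change -0.39, SE 0.21, adjusted p = 0.434).

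In low-dose males, the share of all genes called was 0.124% for Aro0.5, 0.0434% for BPA0.5 and 0% for CPF1, where 322 genes had an unadjusted p below 0.05. Ttr was 3011, 2347, 815 and 2071 CPM in the 4 Aro0.5 males, between 1483 and 3155 CPM in BPA0.5 males and between 2079 and 3570 CPM in CPF1 males. Its log2 fold changes were -0.32 (SE 0.27), -0.17 (SE 0.27) and 0.03 (SE 0.27). All 3 were near or below 1 SE.

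Kl and Clic6 had the lowest values of all comparisons in Aro0.5 males. Kl was 13.2, 11.0, 3.81 and 9.03 CPM in these 4 pups, against 24.0, 17.0, 20.6 and 11.1 CPM in CONF males and between 7.1 and 22.7 CPM in CONSC males (median 21.2, n = 5). Clic6 was 20.8, 12.4, 4.70 and 11.3 CPM, against 28.7, 20.6, 30.5 and 17.6 CPM in CONF males and between 9.73 and 27.6 CPM in CONSC males (median 23.6, n = 5). Both groups overlapped with controls, for Kl through 1 CONF and 1 CONSC male.

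The log2 fold changes were -0.92 for Kl (SE 0.27, adjusted p = 0.130) and -0.85 for Clic6 (SE 0.28, adjusted p = 0.151). Aqp1 (-0.55, SE 0.25, adjusted p = 0.253) and Slc4a5 (-0.51, SE 0.25, adjusted p = 0.279) were also below 0, whereas Prlr was at 0.05 (SE 0.37). With DESeq2, or without the CONSC male 8-4y, Kl was called (adjusted p = 0.0412 and 0.0363). In these settings the number of all genes called also rose, from 20 to 269 and 322. Without the Aro0.5 male with the lowest Kl, the log2 fold change of Kl was -0.69, and neither Kl nor any other gene was called.

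Of the 34 other plexus genes, 32 had a log2 fold change below 0 in Aro0.5 males, with a median of -0.344 against 0.003 over all genes. 15 had an unadjusted p below 0.05 and 0 were called, while 18.5% of all genes had an unadjusted p below 0.05. The summed striatal genes were at 142 to 428 CPM in Aro0.5 males (median 241) and at 155 to 832 CPM in control males (median 506). Thalamic and habenular genes were at 1023 to 1713 CPM (median 1527) and at 750 to 1724 CPM (median 924). Their part in the values of the members was not tested.

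Relative to Ttr, both genes were below controls in every Aro0.5 male. Kl was at 0.437, 0.467, 0.467 and 0.436% of the CPM of Ttr in the 4 Aro0.5 males and at 0.530 to 0.957% in the 9 control males (median 0.660%). Clic6 was at 0.689, 0.528, 0.577 and 0.546% and at 0.698 to 1.15% (median 0.839%). The groups did not overlap for either ratio, although the gap for Clic6 was narrow (0.689 against 0.698%). How many of all genes would not overlap in the same way was not tested. Lower ratios of Kl were present in other groups, down to 0.376% in BPA0.5 males and 0.354% in CPF3 females. The mean log2 ratios differed by -0.58 for Kl and by -0.56 for Clic6 (2-sided exact permutation p = 0.0028 for each), and over 45 such tests of 5 members in 9 treated groups, chosen after the values were seen, adjusted p was 0.0629 for both and no ratio passed. 5 of the 45 had an unadjusted p below 0.05. Between the repeat libraries of the CONF male N2-2y, log2 values differed by 0.56 for Ttr, -0.17 for Kl and 0.15 for Clic6. Those of the CONF female N4-3x differed by -0.11, 0.16 and 0.03. Both ratios thus also moved between libraries of the same pup, and the part of this in the group difference was not tested. Folr1, at 1.02, 1.07, 1.47 and 1.22% of Ttr against 1.05 to 1.35% in control males, overlapped with controls.

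High-dose females had 0% of genes called for Aro5, 0% for BPA5 and 0% for CPF3, with 548, 694 and 1493 genes at an unadjusted p below 0.05 in edgeR's quasi-likelihood F test and 1, 1 and 3 genes called by DESeq2. In BPA5 females, Ttr was 722, 1609, 1287 and 2285 CPM, against 1518 to 4369 CPM in the 10 control females (median 2363). Both groups overlapped, with 2 of 4 BPA5 females below all controls. Folr1 was 9.35, 18.9, 18.3 and 23.5 CPM in the same pups, against 15.7 to 46.7 CPM in control females (median 27.5).

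The log2 fold changes in BPA5 females were -0.78 for Ttr (SE 0.33, adjusted p = 0.925) and -0.69 for Folr1 (SE 0.29, adjusted p = 0.925). All 7 tested members were below 0, the nearest to 0 being Slc4a5 (-0.24, SE 0.26), and 31 of the 34 other plexus genes were below 0 with a median of -0.321. In the same comparison 9 of 10 striatal genes (median -0.438) and 12 of 13 cilium genes (median -0.27) were below 0, and 9 of 12 thalamic and habenular genes were above 0 (median 0.152), with 0 called, and their part was not tested. Slc4a5 was at 0.905, 0.746, 0.981 and 0.749% of the CPM of Ttr in BPA5 females and at 0.377 to 0.937% in control females. In Aro5 females Ttr was at 1091 to 2895 CPM (median 2111, n = 5, log2 fold change -0.32, SE 0.30). In CPF3 females it was 2008, 4161, 3233 and 800 CPM (log2 fold change 0.02, SE 0.32), the widest spread of all groups.

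Both kinds of controls had similar levels. Between CONSC and CONF, 0.013% of genes were called in males and 0% in females (713 genes with an unadjusted p below 0.05 by edgeR's quasi-likelihood F test, and 0 members called). Ttr differed by 0.09 on the log2 scale in males (SE 0.25) and by 0.07 in females (SE 0.22). The farthest from 0 was Kl in females (log2 fold change -0.40, SE 0.19, adjusted p = 0.850).

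No member was called between males and females, although 51.3% of all genes were called between the sexes in the 52 control and high-dose pups. The log2 differences of males from females ran from -0.17 (Slc4a5, SE 0.12) to 0.17 (Aqp1, SE 0.14), and that of Ttr was 0.09 (SE 0.14, adjusted p = 0.621), with 0 of 7 members called. Title forms differ between the sexes in the controls and could not be read in treated females, so that sex and title form cannot be fully told apart. Within collection times from 10.30 to 13.20, 1 member, Slc4a5, was called (log2 difference -0.34, adjusted p = 0.0285 by edgeR's quasi-likelihood F test). The share of all genes called within these times is not given here, and over all times it was 51.3%. This call thus does not set Slc4a5 apart from other genes.

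The response of males minus that of females was tested as an interaction, in which 0.0984% of all genes were called for Aro5, 0.0405% for BPA5 and 0.0463% for CPF3, and no member. For Ttr the values were 0.06 (SE 0.38), 0.51 (SE 0.39, adjusted p = 1.00) and -0.31 (SE 0.39). The largest was that of Prlr for Aro5 (0.81, SE 0.42, adjusted p = 0.575).

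Littermates were compared to see whether the level goes with the litter. In the 18 litters with pups of both sexes, Ttr in males and in females had Pearson's r of 0.074 (permutation p = 0.772) and Spearman's rho of 0.236 (permutation p = 0.342), so that no relation was found. The median absolute log2 difference within a litter was 0.370 and the female was higher in 11 of 18 litters. In litter 79 the BPA5 male had 3294 CPM and the BPA5 female 722 CPM. For the other tested members, r between littermates ran from -0.018 (Slc4a5) to 0.196 (Clic6).

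Littermates of 1 sex, which share dam, treatment and sex, also differed in all abundant members together. In the Aro5 males 120-1y and 120-2y, Ttr was 1043 and 2443 CPM, Folr1 13.2 and 30.1 CPM, Aqp1 27.2 and 64.7 CPM and Slc4a5 6.16 and 14.9 CPM. In the Aro5 females 115-7x and 115-13x, Ttr was 2895 and 1276 CPM, Folr1 33.5 and 16.6 CPM and Kl 24.1 and 7.68 CPM. In both pairs every abundant member was higher in the same pup.

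**Figure D5:**
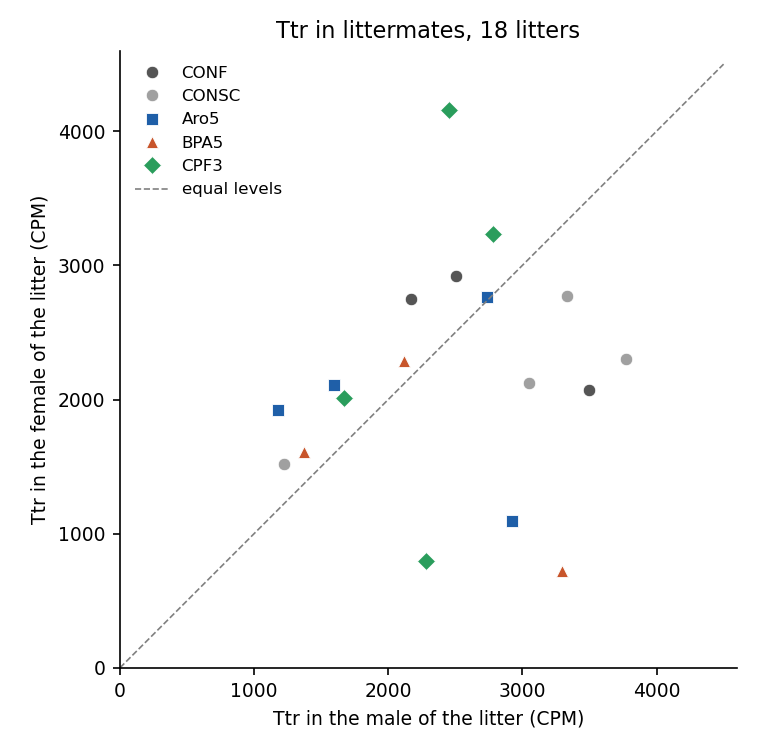
Ttr in the male (horizontal axis) and the female (vertical axis) of 18 litters, in CPM, by treatment, with a dashed line of equal levels; pups of 1 sex and litter are averaged. Points scatter on both sides of the line, the female being higher in 11 and the male in 7 litters.

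Neither collection time nor depth had a relation with a member that passed adjustment over 16 relations. Ttr had r = 0.020 with the time of day (permutation p = 0.877) and r = -0.216 with total counts (permutation p = 0.0873, adjusted p = 0.350). The lowest p was that of Aqp1 with total counts (r = -0.325, permutation p = 0.00921, adjusted p = 0.147).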

How the data were processed

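RNA of dorsal hippocampus was sequenced by the authors from stranded mRNA libraries with single-end reads. The deposited values are raw counts per gene entry, made by the authors with STAR (alignment to the rat build Rnor_6.0) and featureCounts. Software versions, strandedness of counting and treatment of reads with several matches are not given in the sources used here, so that overlapping genes and near-identical copies are uncertain. Identifiers were named from the deposited gene map. Groups, sex, litter and collection time were taken from the labels, and all 66 libraries were assigned. The libraries of 1 pup were summed, CONF and CONSC of 1 sex were combined as controls, and whole-number counts were checked in every file.

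CPM were computed from total counts. Comparisons used edgeR 4.0.16 in R 4.3.3 (TMM factors, filterByExpr by group, quasi-likelihood F test, Benjamini-Hochberg adjustment over all genes tested, threshold 0.05) without a batch term, where the study used DESeq2. Each SE was derived from the fold change and its F value. DESeq2 1.42.0, limma 3.58.1 and the further settings of the closing section were alternatives. Pearson's r and Spearman's rho were computed on log2(CPM + 0.5) with scipy 1.17.1, pandas 2.3.3 and numpy 2.4.6 in Python 3.11.15, with 2-sided permutation p-values from 100000 resamples. Ratios to Ttr were tested by exact permutation over pups. Figures were drawn with matplotlib 3.10.9. The edgeR script was tested on simulated data. Promoter sequences came from RefSeq (GRCr8), which is not the build of the counts, and no coordinate of the counts was used.

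The members and gene lists were chosen with earlier results of these data known. The named genes are all members, the 10 genes with the highest and the 3 with the lowest r with Ttr among those with a mean of at least 1 CPM, and for each list the 3 with the highest and the 1 with the lowest r, except 1 gene that is not reported here. Igf2 falls under this rule, and the striatal list was added after values had been seen. The labels give separate pups for the replicates, except for the 2 libraries each of N2-2y and N4-3x, and littermates share a dam. Replicate numbers do not pair pups of different groups, and litters pair the sexes. Total counts of at least 10644138 per library give the abundant members 68 or more counts in every pup, whereas values of Prlr and Otx2 are limited by counting error.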

Additional observations from a re-analysis of the deposited data

Results flagged for a closer look

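Within groups of 4 to 7 pups, 91 sets of values of 7 members were searched for a highest or lowest pup set apart from the others by Dixon's criterion, and 6 were found. Chance alone gives about 1 in 20, so that 6 of 91 is near that rate. The sets are not independent, because the abundant members move together across the same pups.

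3 of the 6 belong to the CONSC male 8-4y, which had the lowest Kl, Clic6 and Aqp1 of its group. Kl was 7.1 CPM in this pup and 18.3 to 22.7 CPM in the other 4. Clic6 was 9.73 CPM against 23.3 to 27.6 CPM, and Aqp1 was 23.3 CPM against 50.5 to 60.7 CPM. Ttr (1220 CPM) and Folr1 (14.4 CPM) were also lowest in this pup within its group, but were not flagged. Without this pup, Kl was called in Aro0.5 males (adjusted p = 0.0363 by edgeR), and the number of all genes called rose as well.

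The other 3 were single high pups. Kl was 26.9 CPM in the CONF female N1-8x and 17.2 to 19.2 CPM in the other CONF females. Clic6 was 26.1 CPM in the BPA0.5 male 72-4y and 15.1 to 16.5 CPM in the others. Prlr was 0.802 CPM in the CPF3 female 38-5x, the pup with the second highest Ttr of all, and 0.394 to 0.446 CPM in the others.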

How the results depend on the processing

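The 21 correlated pairs of 28 became 15 to 21 under the alternatives, and all 15 pairs of the abundant members kept a positive r. With only the 6 members of at least 10 counts in every pup, 15 pairs existed and all 15 were correlated. Against controls, 1 member, Kl, was called in Aro0.5 males by DESeq2 (log2 fold change -0.92, adjusted p = 0.0412) and leaving out 1 pup gave 0 to 1, the 1 without the CONSC male 8-4y. Kl ranged from -0.94 to -0.84 over the other settings and from -1.11 to -0.69 without single pups. Between the sexes, 1 member, Slc4a5, was called within the time window, where Aqp1 was at -0.0152. Over all collection times 51.3% of all genes were called between the sexes, so that this call does not set Slc4a5 apart. No other setting called a member. Ttr between littermates had r = -0.018 as deviations from group means and r = -0.0039 without the 2 litters farthest from the median, and Ttr with time had r = -0.0038 without 2 pups and r = -0.098 in males. The cause was not tested in any of these. Such values near 0 have no direction. Ttr in Aro0.5 males was between -0.53 and -0.07 without single pups, the last without 94-3y. The ratios of Kl and Clic6 to Ttr in Aro0.5 males, whose alternatives were chosen after seeing the data, differed from controls by -0.62 to -0.53 and by -0.70 to -0.52. With the litter as a replicate block, Ttr differed by 0.12 between the sexes (adjusted p = 0.613), Ttr had interactions of 0.07, 0.58 and -0.06 in limma, and 0 members were called. Counts of all genes called moved more. In high-dose males they went from 32, 31 and 26 to between 0, with the title form as covariate, and 818 for Aro5 within the time window, 63 for BPA5 and 82 for CPF3. In low-dose males 20 became 0 to 269 and 7 became 0 to 39, and leaving out 1 pup gave 0 (without 94-3y) to 322 (without 8-4y) for Aro0.5. Between the sexes 8868 became 4760 in controls alone, and the interactions of 17, 7 and 8 genes became 11 to 609, 0 to 15 and 1 to 16. Depth limits statements on Prlr and Otx2.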

Other observations

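Motile cilium genes, which are active in ependyma and plexus, had mostly values below 0 in CPF3 males. Of 13 tested genes, 11 had a log2 fold change below 0 with a median of -0.334, 8 had an unadjusted p below 0.05, compared with 12.6% of all genes, and 0 were called by edgeR's quasi-likelihood F test (smallest adjusted p = 0.235). In BPA0.5 males 11 of 12 were above 0 with a median of 0.266 and 5 had an unadjusted p below 0.05, compared with 8.58% of all genes, again with 0 called (smallest adjusted p = 0.518). In the same comparisons the members had medians of -0.298 and -0.213 and the striatal genes medians of -0.835 (10 of 10 below 0, 6 with an unadjusted p below 0.05) and 0.202 (10 of 10 above 0).

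The summed striatal genes exceeded 1000 CPM in 4 pups, with 1652 CPM in the CONSC female 9-1x, the pup with the highest Ttr (4369 CPM), and a median of 334 CPM over all pups.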
